A study of Mus musculus with 9 samples.

Results

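Osteocalcin and 4 further genes, listed as late osteoblast or osteocyte genes, were examined in the embryonic mouse skull. The set was given as a list of 7 genes, namely the osteocalcin paralogs Bglap, Bglap2 and Bglap3 together with Clec11a, Phex, Sost and Itm2a, and all 7 were found among the 43548 gene identifiers of the expression table. Tissue was taken at E14.5 from control cranial base, MCAGF8 cranial vault and control cranial vault, and each group held 3 RNAseq libraries. Each library was made from pooled RNA of 3 of the 9 samples collected per group, so the spread between libraries is a spread between pools. MCAGF8 embryos carried Msx2-Cre together with CAGF8, an Fgf8b transgene that is silent at the Rosa26 locus until Cre acts. Msx2-Cre acts in the surface ectoderm of the head, which was peeled off with the skin before the vault was collected. The study's methods describe controls as embryos without Cre, and all offspring of the cross as heirs of the silent CAGF8 allele, whereas the labels call controls wildtype on a mixed strain. Cranial base was taken only from controls, as its cartilaginous parts, from embryos whose vaults were collected first, so base and control vault libraries may share embryos, and which embryos went into which pool was not stated. The fit treats all libraries as independent.

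Osteocalcin is a small protein that mature osteoblasts secrete into bone matrix, where carboxylated glutamate (Gla) residues made with vitamin K let it bind mineral. Its transcription is a late step of osteoblast differentiation, after Runx2 and Sp7. Of the other genes, Clec11a encodes a secreted factor that promotes osteogenesis, Phex a membrane endopeptidase needed for mineralization, Sost the Wnt inhibitor sclerostin of osteocytes, and Itm2a a membrane protein of early cartilage, bone and muscle cells. Phex and Itm2a are therefore not secreted proteins, and Itm2a is not particular to late osteoblasts.

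The osteocalcin paralogs lie side by side on chromosome 3 and are nearly identical in sequence, which bears on how far reads can be assigned to each. In the GENCODE M21 annotation of GRCm38, Bglap (ENSMUSG00000074483) occupies chr3:88383501-88384464, Bglap2 (ENSMUSG00000074486) chr3:88377736-88378699 and Bglap3 (ENSMUSG00000074489) chr3:88368616-88372743, all on the minus strand. Their coding sequences, from the same annotation and without the stop codon, are each 285 bases long and are shown because they explain why the paralogs are also given as a sum. Capitals mark the bases that differ from Bglap, 4 in Bglap2 and 13 in Bglap3.
Bglap: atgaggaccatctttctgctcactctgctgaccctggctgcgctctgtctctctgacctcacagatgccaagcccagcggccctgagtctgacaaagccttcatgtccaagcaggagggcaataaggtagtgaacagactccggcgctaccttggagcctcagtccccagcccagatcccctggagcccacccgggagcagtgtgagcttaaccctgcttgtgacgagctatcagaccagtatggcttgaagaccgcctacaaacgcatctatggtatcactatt
Bglap2: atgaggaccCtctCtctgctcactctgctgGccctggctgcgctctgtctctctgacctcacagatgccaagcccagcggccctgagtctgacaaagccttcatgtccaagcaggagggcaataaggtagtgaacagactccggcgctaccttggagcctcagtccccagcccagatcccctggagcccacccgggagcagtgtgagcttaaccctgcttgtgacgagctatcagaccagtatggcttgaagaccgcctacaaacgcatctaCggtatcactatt
Bglap3: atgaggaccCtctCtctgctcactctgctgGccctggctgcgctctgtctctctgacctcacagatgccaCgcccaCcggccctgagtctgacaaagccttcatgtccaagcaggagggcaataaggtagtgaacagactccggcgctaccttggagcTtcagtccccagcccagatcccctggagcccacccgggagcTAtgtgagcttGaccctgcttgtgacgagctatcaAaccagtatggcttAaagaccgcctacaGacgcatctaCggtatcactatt
The coding sequence of Bglap was 98.6% identical to that of Bglap2 and 95.44% identical to that of Bglap3. Of the 290 windows of 151 bases in the Bglap transcript, 151 being the read length in the labels, 91 (31.38%) also occurred unchanged in the Bglap2 transcript and 0 in that of Bglap3. How the authors' counting divided such reads was not stated, so the split between Bglap and Bglap2 is uncertain.

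The other genes lie apart from this cluster, again in GRCm38 and all on the minus strand. Clec11a is at chr7:44302687-44306902, Phex at chrX:157162075-157415312, Itm2a at chrX:107397099-107403376 and Sost at chr11:101962458-101967015. RefSeq promoter windows of GRCm38.p6, from 250 bases before to 50 bases after the start, were matched for 6 of the 7 genes. They were searched on both strands for ACCACA, the core of the RUNX binding motif. The Bglap window held 1 match, 132 bases before the start, and its upstream part, chr3:88384467-88384716 on the minus strand, is shown with that match in capitals.
Bglap promoter: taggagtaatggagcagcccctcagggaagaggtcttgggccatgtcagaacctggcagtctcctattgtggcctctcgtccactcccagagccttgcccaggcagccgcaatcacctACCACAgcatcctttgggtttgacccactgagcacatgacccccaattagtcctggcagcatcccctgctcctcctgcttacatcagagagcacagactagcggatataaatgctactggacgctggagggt
None of the other 7 windows of the genes held the motif, while 16.8% of all 32851 promoter windows did. A match of this kind is a description of sequence only, and binding was not tested.

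The deposited values are FPKM, read numbers scaled by transcript length and by the mapped reads of the library, without counts, so the depth behind a value is unknown and no counting interval can be given. The FPKM values summed to between 793249 and 1315982 per library, and 16006 to 17281 genes reached 1 FPKM. Fgf8 itself was at 3.78, 17.4 and 5.82 FPKM in control base, 19.5, 9.43 and 13.0 FPKM in MCAGF8 vault, and 13.5, 8.25 and 3.01 FPKM in control vault, so the groups overlapped for the transgene's own gene. Several libraries stood apart from others of their group. Summed cartilage markers (14 of 14 in the table) reached 9738 FPKM in base replicate 2 but 833 and 1449 FPKM in base replicates 1 and 3, below all vault libraries, whose range was 1997 to 5013 FPKM. Summed skeletal muscle markers (12 of 12) were at 11333, 1786 and 4757 FPKM in control base, 942, 5886 and 1595 FPKM in control vault, and 53.6 to 215 FPKM in MCAGF8 vault. Summed epidermal markers (7 of 7) were at 381 to 974 FPKM in MCAGF8 vault, 58.2 to 663 FPKM in control base and 13.2 to 101 FPKM in control vault. Some transcripts of olfactory epithelium were high in control vault replicates 1 and 3 and near 0 in replicate 2, as given with the osteocalcin genes they moved with. Osteoblast markers (10 of 10) were present in every library and their sum was 10409 to 14937 FPKM in control vault, 7307 to 8627 FPKM in MCAGF8 vault and 2647 to 4826 FPKM in control base. Col1a1, Col1a2 and Sparc, the most abundant of them, were higher in MCAGF8 vault than in control base (mean Col1a1 2430 against 714 FPKM). Ibsp went the other way, at a mean of 24.9 against 342 FPKM, as did Spp1, at 21.0 against 148 FPKM. The mean log2 level in MCAGF8 vault was below that of control base for 6 of the 10 and above it for 4. In such bulk tissue, fewer cells of a type and less RNA per cell cannot be told apart.

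Bglap transcripts were highest in control vault replicates 1 and 3. Bglap was at 21.5, 0.707 and 24.8 FPKM in control vault, at 0.554, 0.232 and 0.388 FPKM in MCAGF8 vault, and at 0.226, 0.187 and 3.54 FPKM in control base. Every control vault library was above every MCAGF8 library, but replicate 2 of the control vault only narrowly so, and base replicate 3 was above it. The group means were 15.7 ± 13.1 FPKM in control vault, 0.391 ± 0.161 FPKM in MCAGF8 vault and 1.32 ± 1.92 FPKM in control base (SD, n = 3 each). On the log2(FPKM + 1) scale, MCAGF8 vault minus control vault was -2.85 with a standard error of 0.94 and a 95% interval of -4.96 to -0.73, and its adjusted p was 0.463 by limma with Benjamini-Hochberg adjustment. A gene is referred to as called where the unadjusted p is under 0.05 and the adjusted p under 0.1, and Bglap was not called. The highest control vault value was 35.11 times the lowest, against a median of 1.40 times and a 95th percentile of 4.46 times over all 18221 genes above 0 in those 3 libraries. Without control vault replicate 2, Bglap was called at -4.12 (limma adjusted p = 0.0277), and without replicates 1 and 3 the difference was -0.30 (limma adjusted p = 1.0). The last setting was chosen after the data were seen, and its lone control vault library is assumed to vary like the other groups.

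Bglap2, which like Bglap encodes osteocalcin of bone, was listed at 0 in all 3 MCAGF8 libraries. It was at 19.3, 2.71 and 16.5 FPKM in control vault and at 0.601, 0 and 1.85 FPKM in control base. The control vault libraries lay above all other libraries, with replicate 2 again the lowest of them. Bglap2 was called lower in MCAGF8 vault than in control vault, with a log2 difference of -3.45, a standard error of 0.61 and a limma adjusted p of 0.0743. No fold is given against a group listed at 0. Only genes with a mean of at least 0.5 FPKM over all libraries were tested, and Bglap2 reached this only through the control vault, its mean over the other 6 libraries being 0.409 FPKM. Both this call and the next are therefore a description of a gene that entered the test through the group where it was high, and without the minimum neither was made (limma adjusted p = 0.187 and 0.133). It was also called lower in control base than in control vault, with a log2 difference of -2.72, a standard error of 0.61 and a limma adjusted p of 0.0672. Between MCAGF8 vault and control base, whose libraries overlapped, the log2 difference was -0.73 with an interval of -2.10 to 0.64. The first call was lost without any 1 of the 3 MCAGF8 libraries (limma adjusted p = 0.358, 0.264 and 0.205), without control vault replicate 1 (0.205) or 3 (0.220), and without base replicate 1 (0.120). It was also lost with only the libraries of the 2 groups (0.103), where Clec11a was called instead, and with pseudocounts of 0.1 and 0.01 in place of 1 the estimate moved to -6.60 and -9.90. The base call was lost without the same 6 libraries taken singly, with limma adjusted p between 0.107 and 0.251. Without control vault replicates 1 and 3 together, the differences were -1.89 (limma adjusted p = 0.532) against MCAGF8 vault and -1.16 (0.889) against control base.

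Bglap3, a paralog better known for transcripts outside bone, stayed below 1 FPKM in every library. It was at 0.794, 0.0304 and 0.741 FPKM in control vault, 0.0276, 0 and 0.682 FPKM in MCAGF8 vault, and 0, 0.105 and 0.0882 FPKM in control base. Its mean of 0.274 FPKM over the 9 libraries was under the minimum of 0.5 FPKM for testing, so it has no test. The sum of the 3 paralogs, which also shifts with the split of shared reads because FPKM divides by transcript length, was at 41.6, 3.45 and 42.0 FPKM in control vault, 0.581, 0.232 and 1.07 FPKM in MCAGF8 vault, and 0.828, 0.292 and 5.48 FPKM in control base. All control vault libraries exceeded all MCAGF8 libraries, and base replicate 3 exceeded control vault replicate 2. Fitted as 1 gene, this sum differed by -3.66 on the log2 scale between MCAGF8 vault and control vault and was not called (limma adjusted p = 0.186).

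**Figure D1:**
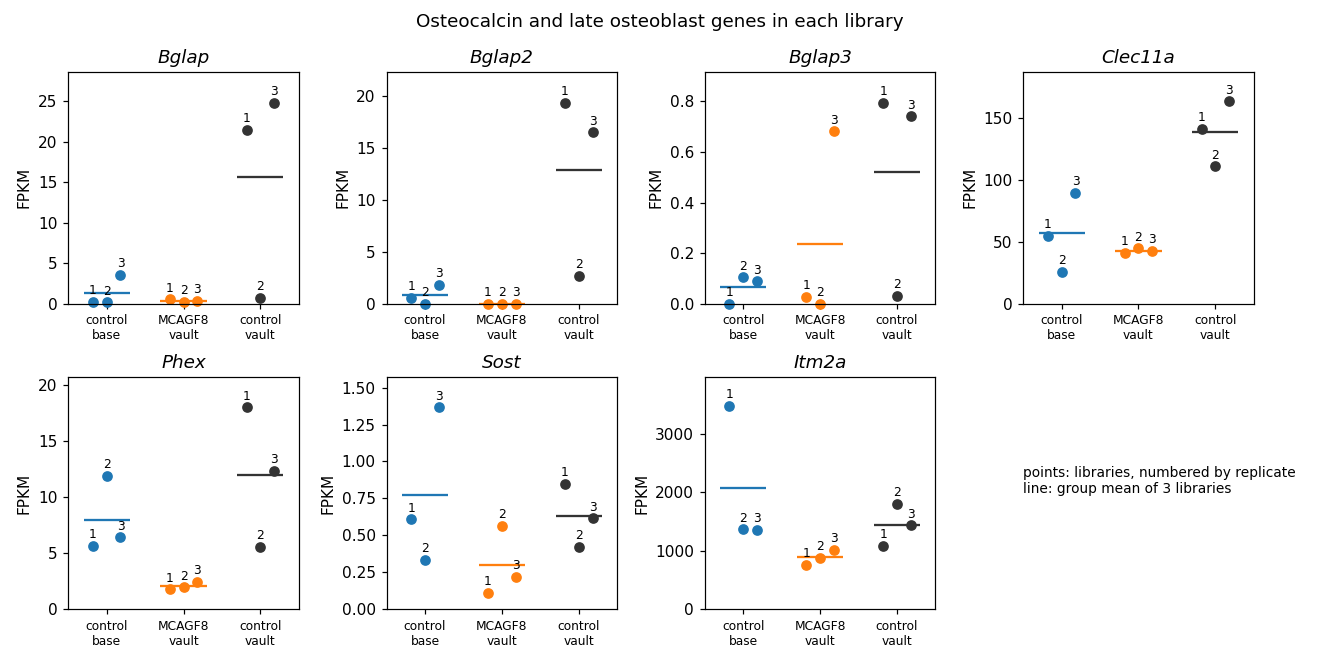
FPKM (vertical axis, linear from 0, a separate scale for each gene) of the 7 genes in each library, grouped as control base, MCAGF8 vault and control vault. Points are libraries numbered by replicate and lines are means of 3. Control vault replicates 1 and 3 carry nearly all osteocalcin signal (21.5 and 24.8 FPKM of Bglap against 0.707 FPKM in replicate 2), whereas the 3 control vault points of Clec11a lie together above every other library.

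The genes whose profile over the 9 libraries lay closest to that of Bglap were Cyp2g1, Acsm4 and Ugt2a2, which encode enzymes known from olfactory epithelium. Likeness was the root mean square difference of log2(FPKM + 1) profiles centred on their own mean, among 13801 genes with a group mean of at least 5 FPKM, and was 0.402, 0.417 and 0.435 for these genes against 1.71 for the size of the Bglap profile itself. Bglap, Bglap2 and these 3 genes reached that group mean only in control vault. Their likeness is therefore a description of genes that entered through the group where they were high. Ugt2a2 was at 33.7, 0.0777 and 36.9 FPKM in control vault, at most 0.0216 FPKM in MCAGF8 vault, and at 0.137, 0.0376 and 3.33 FPKM in control base. Cyp2g1 was at 12.4, 0.0349 and 7.44 FPKM in control vault and was listed at 0 in every MCAGF8 library. Omp, the olfactory marker protein of sensory neurons, was at 2.29, 0.0290 and 3.03 FPKM in control vault. These genes were thus high in control vault replicates 1 and 3, next in base replicate 3, and near 0 elsewhere, as Bglap was. A list of 12 olfactory genes written after this result was seen, which includes those 3 genes and of which 11 were in the table, summed to 118.9, 32.5 and 122 FPKM in control vault, 38.8 to 41.2 FPKM in MCAGF8 vault, and 27.6, 29.2 and 72.7 FPKM in control base. Not all of its genes followed this pattern. Adcy3 was at 19.4, 15.9 and 19.2 FPKM and Gng8 at 21.0, 13.7 and 17.4 FPKM in control vault, which together make up most of the sum in replicate 2, with 15.7 to 20.8 FPKM of Adcy3 in MCAGF8 vault, and Gnal was highest in base replicate 3 (20.3 FPKM). Odontoblast and ameloblast markers (4 of 4) summed to 7.25, 1.47 and 7.96 FPKM in control vault, at most 0.239 FPKM in MCAGF8 vault and at most 4.19 FPKM in control base. Nearly all of the control vault sum was Ambn alone, at 7.08, 1.43 and 7.80 FPKM. There Dspp was at most 0.166 FPKM, Enam at most 0.00912 FPKM and Amelx at 0, and of these markers only Ambn passed the minimum for testing. For Bglap2 the closest profiles were Bglap (0.549), Cyp2g1 (0.597) and Acsm4 (0.598). Bone genes also differed among control vault libraries, with Ibsp at 1487, 679 and 1527 FPKM, Spp1 at 841, 306 and 836 FPKM and Dmp1 at 75.6, 22.4 and 74.8 FPKM. Replicate 2 was the lowest for each, and above every MCAGF8 library, whose highest values were 50.7 FPKM of Ibsp, 39.6 FPKM of Spp1 and 4.29 FPKM of Dmp1. Of the 10 osteoblast markers, 6 did not overlap between MCAGF8 vault and control vault, where 9.35% of all genes lay wholly lower. The study had named these 6 (Sp7, Ibsp, Spp1, Ifitm5, Phospho1 and Sparc) as lower from these same libraries. The count is therefore a description and not independent evidence. For the other 4, control vault replicate 2 lay within the range of MCAGF8 vault, with Alpl at 72.4 FPKM against up to 89.4 FPKM, Col1a1 at 2664 against 2666 FPKM, Col1a2 at 2716 against 2746 FPKM and Runx2 at 44.8 against 45.9 FPKM. The part of these library differences in the osteocalcin result was not tested.

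**Figure D2:**
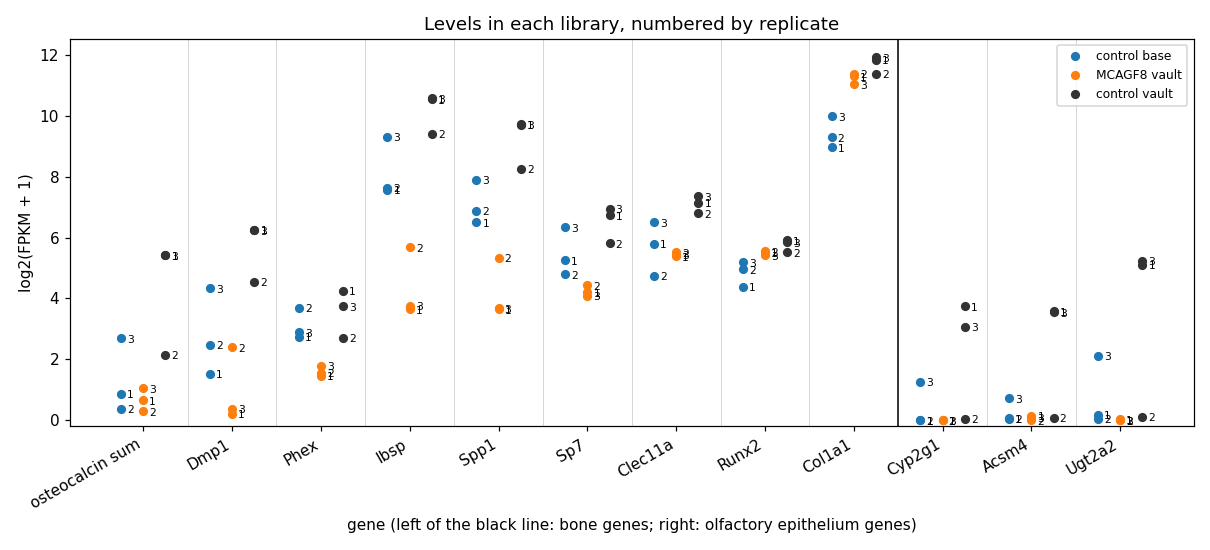
Level as log2(FPKM + 1) (vertical axis) of the osteocalcin sum, 8 bone genes and 3 olfactory epithelium genes in every library, coloured by group and numbered by replicate. Ibsp, Spp1, Sp7 and Dmp1 of control vault replicate 2 lie between the other control vault points and the MCAGF8 points, its Runx2 and Col1a1 lie within the MCAGF8 range, and its olfactory genes lie at the level of the MCAGF8 libraries (Ugt2a2 at 0.0777 FPKM against 33.7 and 36.9 FPKM in replicates 1 and 3).

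For the enzymes and relatives of osteocalcin as a Gla protein, 9 genes were listed. Of these 9 genes for carboxylation, other Gla proteins and proposed receptors, 7 passed the minimum, and limma called 0 of 7 in each of the 3 comparisons, with 1, 0 and 0 at an unadjusted p under 0.05. Since 0.604%, 8.39% and 3.06% of all genes were called in either direction, counts of 0 among 7 say little of this list. The gene with an unadjusted p under 0.05 was Vkorc1, the enzyme that recycles vitamin K, at 394, 376.5 and 502 FPKM in control vault and 220, 290 and 228 FPKM in MCAGF8 vault. Its libraries did not overlap, and the log2 difference was -0.78. Mgp, the matrix Gla protein that inhibits mineralization, was at 494, 448 and 605 FPKM in control vault and 389, 504 and 443 FPKM in MCAGF8 vault, which overlapped.

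Of 15 listed regulators of osteocalcin transcription, limma called 1 lower and 0 higher in MCAGF8 vault against control vault, where 0.604% of all 18714 genes tested were called in either direction. The called gene was Sp7, the zinc finger factor required for osteoblast formation, at 105, 55.4 and 123 FPKM in control vault and 17.5, 20.6 and 16.0 FPKM in MCAGF8 vault. Its libraries did not overlap, and the log2 difference was -2.25 (limma adjusted p = 0.0763). The call was lost in 10 of 22 alternatives, those without any 1 of the MCAGF8 libraries or without control vault replicate 1 or 3 or base replicate 1 among them (limma adjusted p between 0.115 and 0.358). Runx2, the master factor of the lineage, was at 59.0, 44.8 and 56.6 FPKM in control vault and 44.9, 45.9 and 42.0 FPKM in MCAGF8 vault, so its libraries overlapped. Against control base, where 8.39% of all genes were called, MCAGF8 vault had 3 regulators called higher and 0 lower, where 2.98% of all genes were called higher. These were Msx2 (log2 difference 3.19), Fosl2 (1.099) and Twist1 (1.29). Of the 15 differences, however, 10 were below 0, and their median was -0.32 against -0.066 over all genes tested. At an unadjusted p under 0.05 by limma, 5 were higher and 2 lower, the latter being Sp7 (-1.23) and Vdr (-1.10), neither called. Msx2, a homeobox gene of the early vault, was at 99.2 to 152 FPKM in MCAGF8 vault and 10.7 to 13.8 FPKM in control base. In control base against control vault, where 3.06% of all genes were called, Runx2 (-0.91) and Msx2 (-2.63) were called lower and no regulator higher. The calls of Fosl2, Twist1 and Runx2 were lost in 10, 12 and 13 of 22 alternatives, that of Msx2 in 0.

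Clec11a was the member whose control vault libraries stood together. It was at 141, 111 and 163 FPKM in control vault, 40.9, 44.7 and 42.4 FPKM in MCAGF8 vault, and 54.7, 25.9 and 89.4 FPKM in control base. The lowest control vault library exceeded the highest of either other group, and the MCAGF8 values lay inside the range of the base. Mean Clec11a was 138 ± 26.2 FPKM in control vault, 42.7 ± 1.90 FPKM in MCAGF8 vault and 56.6 ± 31.8 FPKM in control base (SD, n = 3 each), and the control vault mean was 3.24 times that of MCAGF8 vault. The log2 difference between MCAGF8 vault and control vault was -1.66 with a standard error of 0.37 and was not called (limma adjusted p = 0.150). For control base minus control vault it was -1.42 with a standard error of 0.37, again not called (0.107). The first of these was called when base replicate 2 (limma adjusted p = 0.0210) or 3 (0.0888) was left out and in the fit of only the 2 groups (0.0336, with a standard error of 0.158). The second was called without the same base libraries (0.0691 and 0.0408), with quantile normalization (0.0734) and with rescaling to equal sums (0.0518). The study named Clec11a, and also Itm2a, from these same libraries, so their direction here is not independent evidence.

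The closest profiles to Clec11a were those of Tmem119 (0.204), a membrane protein of osteoblasts, Hpse (0.302), which cleaves heparan sulfate, and Tcf7 (0.322), a transcription factor of the Wnt pathway. Tmem119 was at 262, 192 and 333 FPKM in control vault, 97.7, 128 and 82.6 FPKM in MCAGF8 vault, and 121, 48.6 and 182 FPKM in control base. Its control vault libraries likewise exceeded all others. Itga11 and Itgb1 encode the integrin subunits to which Clec11a binds, and they form a list of 4 genes with the Itm2a relatives Itm2b and Itm2c. Of these, limma called 0 in MCAGF8 vault against control vault, with 0 at an unadjusted p under 0.05. Over all 18714 genes tested, 0.604% were called and 1186 had such a p, so counts of 0 among 4 say little of this list. Itga11 was at 26.0, 21.7 and 28.1 FPKM in control vault, 35.6, 33.4 and 25.2 FPKM in MCAGF8 vault, and 4.13, 9.10 and 6.53 FPKM in control base. Both vault groups lay above the base, and Itga11 was called higher in MCAGF8 vault than in control base (log2 difference 2.13) and lower in control base than in control vault (-1.84). MCAGF8 vault thus overlapped the base for the ligand gene and overlapped the control vault for its receptor subunit. Itgb1 was at 342, 419 and 321 FPKM in control vault and 360, 274 and 368 FPKM in MCAGF8 vault, and Itm2b at 350.0, 414 and 480 FPKM and 368, 555 and 379 FPKM, with overlap in both.

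Phex was lowest in MCAGF8 vault. It was at 18.03, 5.55 and 12.3 FPKM in control vault, 1.75, 1.95 and 2.46 FPKM in MCAGF8 vault, and 5.67, 11.9 and 6.42 FPKM in control base. Every MCAGF8 library lay below every control library of either tissue, and the control groups overlapped. The means were 11.98 ± 6.25 FPKM in control vault, 2.05 ± 0.365 FPKM in MCAGF8 vault and 7.99 ± 3.40 FPKM in control base (SD, n = 3 each). Phex was called lower in MCAGF8 vault than in control base, with a log2 difference of -1.50, a standard error of 0.40 and a limma adjusted p of 0.0652. Against control vault the estimate was larger, -1.96 with a standard error of 0.40, but was not called (limma adjusted p = 0.105). The adjusted p depends on how many genes are called in each comparison, so the call against the base and the lack of one against the vault do not show that the differences differ. Control base minus control vault was -0.46 with an interval of -1.35 to 0.43. The call against the base was lost without base replicate 3 (limma adjusted p = 0.117), any 1 of the MCAGF8 libraries (0.223, 0.170 and 0.138) or control vault replicate 3 (0.104), and with quantile normalization (0.109), rescaling to equal sums (0.162) or no minimum (0.122). Against control vault it became a call without base replicate 2 (0.0688) or control vault replicate 2 (0.0370) and with pseudocounts of 0.1 (0.0642) or 0.01 (0.0667), and without control vault replicates 1 and 3 the difference was -1.11 (1.0).

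The profiles closest to Phex were those of Vdr (0.347), the vitamin D receptor, Dlx6 (0.427), a homeobox factor of the craniofacial skeleton, and Ell2 (0.491), a transcription elongation factor. Vdr was at 6.83, 2.01 and 6.58 FPKM in control vault, 0.718, 1.93 and 1.40 FPKM in MCAGF8 vault, and 2.39, 6.93 and 3.46 FPKM in control base, with control vault replicate 2 just above the highest MCAGF8 library. Of 9 listed genes for the acidic bone proteins, mineral regulators and osteocyte products that surround Phex, 8 were tested, and limma called 3 lower and 0 higher in MCAGF8 vault against control vault, where 0.374% of all genes were called lower. These were Ibsp (log2 difference -5.81), Spp1 (-5.01) and Dmp1 (-4.69), acidic matrix proteins that bind mineral. Ibsp was at 11.5, 50.7 and 12.5 FPKM in MCAGF8 vault and Spp1 at 11.5, 39.6 and 11.8 FPKM, so MCAGF8 replicate 2 was the highest for each. The Dmp1 call was lost in 9 of 22 alternatives, among them those without any 1 of the MCAGF8 libraries (limma adjusted p = 0.358, 0.112 and 0.211) or without control vault replicate 1 (0.211) or 3 (0.216), while those of Ibsp and Spp1 were lost in 1 each, without control vault replicates 1 and 3. Fgf23, the phosphate hormone raised where Phex is lost, was at most 0.0361 FPKM in any library and was not tested. Against control base, MCAGF8 vault had 3 of the 8 called lower and 0 higher, where 5.41% of all genes were called lower, namely Ibsp (-3.81), Spp1 (-2.87) and Fam20c (-1.17), a kinase that phosphorylates such matrix proteins. Between control base and control vault limma called 0 of the 8, with 4 lower, where 4.71% of all genes were, and 0 higher at an unadjusted p under 0.05. In control base Ibsp was at 189, 199 and 638 FPKM and Spp1 at 89.8, 117 and 237 FPKM, below every control vault library. The median log2 difference of the 8 genes was -1.14, -1.01 and -0.71 in the 3 comparisons, against -0.009, -0.066 and 0.067 over all genes tested.

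Sost was low in all tissues, at most 1.37 FPKM in any library, and no difference was detected. It was at 0.847, 0.422 and 0.615 FPKM in control vault, 0.110, 0.565 and 0.219 FPKM in MCAGF8 vault, and 0.609, 0.335 and 1.37 FPKM in control base. The groups overlapped in every pair. The log2 differences were -0.33 for MCAGF8 vault minus control vault (interval -0.93 to 0.26), -0.42 for MCAGF8 vault minus control base (-1.02 to 0.17) and 0.09 for control base minus control vault (-0.51 to 0.68). None was called, with limma adjusted p of 0.969, 0.423 and 0.975. Of 7 listed genes for the receptors, relatives and regulators of sclerostin, limma called 1 in each comparison, where 0.604%, 8.39% and 3.06% of all genes were called. Mef2c, a transcription factor that activates the Sost enhancer in bone and is also abundant in muscle, was called lower in MCAGF8 vault against control vault (-1.19) and against control base (-1.17). It was at 36.8, 39.2 and 30.2 FPKM in control vault, 16.2, 10.996 and 18.4 FPKM in MCAGF8 vault, and 35.0, 38.8 and 31.0 FPKM in control base. The 12 muscle genes summed to at most 215 FPKM in MCAGF8 vault and at least 942 FPKM in the controls. Among the controls the order of Mef2c and muscle differed by tissue. Base replicate 2, with the least muscle of the base, had the most Mef2c there. Control vault replicate 2 had the most of both in its group, with 5886 FPKM of summed muscle markers. The part of muscle in this call was not tested. The call against control vault was lost in 14 of 22 alternatives, among them rescaling to equal sums (limma adjusted p = 0.417), and that against control base in 1, the same rescaling (0.134). Sostdc1, a relative of sclerostin, was called higher in control base than in control vault (2.16), as 1.85% of all genes were, at 16.7 to 69.2 FPKM and 5.35 to 9.34 FPKM.

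Itm2a was the most abundant of the 7 genes by FPKM in every library. It was at 1081, 1798 and 1431 FPKM in control vault, 757, 876 and 1012 FPKM in MCAGF8 vault, and 3469.9, 1362 and 1356 FPKM in control base. Every MCAGF8 library lay below every control library, by a narrow margin against control vault replicate 1, and base replicate 1 stood above all others. The means were 1437 ± 359 FPKM in control vault, 882 ± 127 FPKM in MCAGF8 vault and 2063 ± 1219 FPKM in control base (SD, n = 3 each). The log2 difference was -0.68 with an interval of -1.60 to 0.23 against control vault (limma adjusted p = 0.964) and -1.08 with an interval of -1.999 to -0.17 against control base (0.180), and neither was called. Control base minus control vault was 0.40 with an interval of -0.51 to 1.32.

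In each control tissue Itm2a was highest in the library with the most muscle transcripts, and the plot of Itm2a against muscle genes gives both for each library. Base replicate 1 had the most of both, 3469.9 FPKM of Itm2a and 11333 FPKM of summed muscle markers, and within control vault replicate 2 had the most of both, 1798 and 5886 FPKM. The order was not the same throughout, as base replicate 3 held 4757 FPKM of muscle markers but 1356 FPKM of Itm2a. The 3 MCAGF8 libraries had the least of both, and no muscle marker was at 0 throughout. The part of muscle in the Itm2a values was not tested. The closest profiles to Itm2a were those of Gm4853 (0.133), Cenpp (0.138), a centromere protein, and Magohb (0.152), a protein of the exon junction complex.

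**Figure D3:**
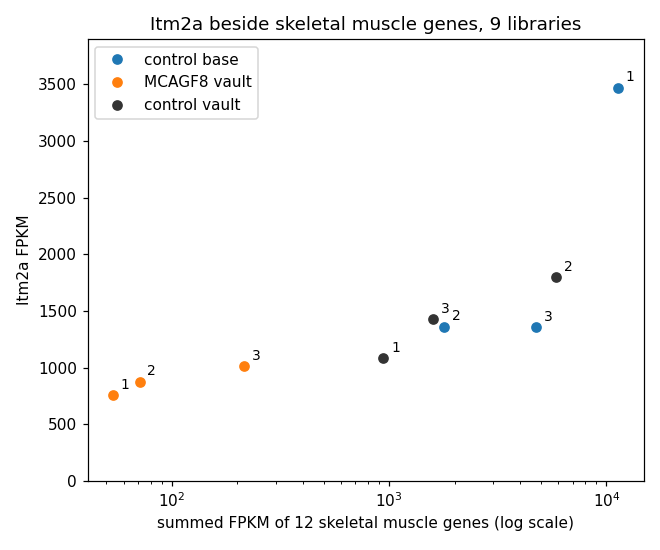
Itm2a FPKM (vertical axis, linear from 0) against the summed FPKM of 12 skeletal muscle genes (horizontal axis, log scale) in the 9 libraries, coloured by group and numbered by replicate. The MCAGF8 libraries sit at the lower left, with 757 to 1012 FPKM of Itm2a, and base replicate 1 at the upper right with 3469.9 FPKM.

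Counted together, 1 of the 6 genes tested was called lower in MCAGF8 vault than in control vault, namely Bglap2, where 0.374% of all genes tested were called lower. Bglap2 passed the minimum only through the control vault, and reads may be divided between Bglap and Bglap2, so these are not separate observations. The study had also named Clec11a and Itm2a as lower from these same libraries. The counts and medians over the 6 genes are therefore a description. All 6 differences were below 0, as were 51.3% of all genes, and 4 had an unadjusted p under 0.05 in that direction (Bglap, Bglap2, Clec11a and Phex), against 3.48% of all genes. The libraries did not overlap for 5 of the 6, all but Sost, against 9.35% of all genes lying wholly lower. The median log2 difference was -1.81 over the 6 genes and -0.009 over all genes. In MCAGF8 vault against control base, 1 of 6 was called lower (Phex) where 5.41% of all genes were, and the libraries of 2 (Phex and Itm2a) did not overlap where 13% of all genes lay wholly lower. The median was -0.58 over the 6 genes against -0.066. In control base against control vault, 1 of 6 was called lower (Bglap2) where 1.21% of all genes were, and the libraries of 2 (Bglap2 and Clec11a) did not overlap where 6.69% of all genes lay wholly lower. The median was -0.94 against 0.067. The 3 comparisons share libraries in pairs and are not independent of each other.

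**Figure D4:**
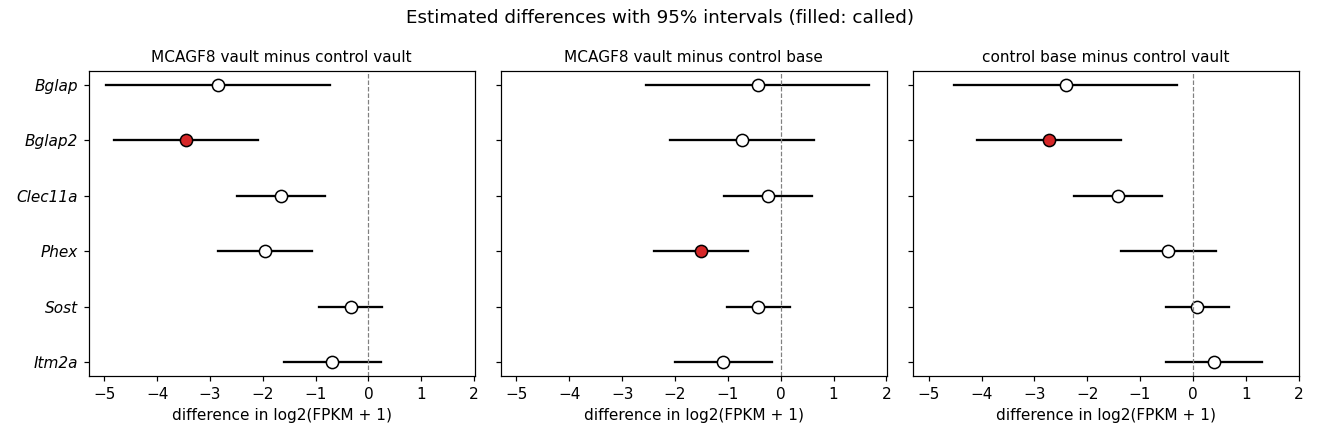
Difference in log2(FPKM + 1) (horizontal axis) of the 6 genes tested in the 3 comparisons, with 95% intervals from limma as lines and called differences filled. Bglap2 is called against control vault in both MCAGF8 vault (-3.45) and control base (-2.72), a gene tested only through its high values in control vault, Phex is called in MCAGF8 vault against control base (-1.50), and the intervals of Sost include 0 in all panels.

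Side by side, the genes differed in which control tissue overlapped MCAGF8 vault. For Bglap, Bglap2 and Clec11a, MCAGF8 vault overlapped control base and both were below control vault, apart from Bglap in base replicate 3. For Phex and Itm2a the control tissues overlapped and MCAGF8 vault was below both, and for Sost all 3 groups overlapped. These orders were not tested against each other.

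**Figure D5:**
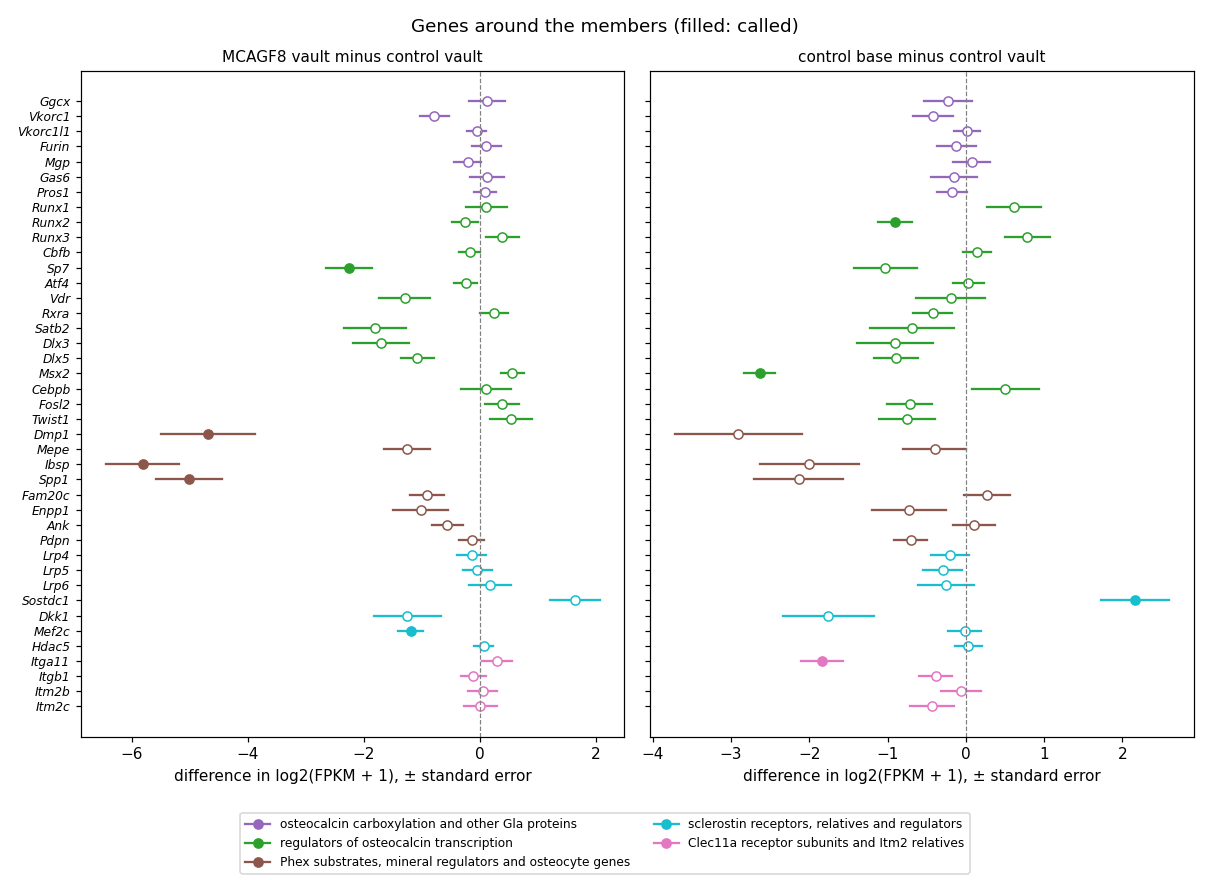
Difference in log2(FPKM + 1) with its standard error (horizontal axis, a separate scale for each panel) for the listed genes around the 7, coloured by list, in MCAGF8 vault minus control vault and in control base minus control vault. Filled points are called, and in the left panel these are Sp7, Dmp1, Ibsp, Spp1 and Mef2c, with Ibsp (-5.81) the lowest.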

How the data were processed

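Processed values of 9 RNAseq libraries, 3 each from control cranial base, MCAGF8 cranial vault and control cranial vault, were analysed. Per the labels and the study's methods, the authors made stranded mRNA libraries, sequenced single-end reads of 151 bases, mapped them with gSNAP and derived the deposited FPKM values with Cufflinks. Depth is unknown, and the sources used here name no versions, genome build or annotation.

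Of 43611 rows, 63 that repeated an identifier were summed. Cells holding 999999999 (17) were treated as missing, and the 9 genes with them were left out. Symbols came from GENCODE M21 (42375 of 43539 identifiers matched), in which Ankh is named Ank. The 18714 genes with a mean of at least 0.5 FPKM were fitted as log2(FPKM + 1) over all 9 libraries with limma 3.58.1 (trended variance, R 4.3.3), with 1 mean per group and Benjamini-Hochberg adjustment over all genes, where the authors used ANOVA. The pseudocount of 1 understates changes of low genes (values with smaller ones are given with the alternatives). The code was tested on simulated data.

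Named were all 7 genes, the called genes of 5 pathway lists (otherwise the 2 most abundant) and the 3 closest profiles of each gene with a group mean of at least 5 FPKM. The genes and lists were chosen with earlier results of these data known. Omp and Fgf23 were named after their values were seen. Tubb3 and Ugt2a1 were not matched. Whether pools came from separate litters was not stated, so p-values measure the spread between these pools. Alternatives tried were other pseudocounts, minimums, scalings, thresholds and treatment of repeated rows, fits of 2 groups, a replicate block, summed paralogs and leaving out libraries.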

Additional observations from a re-analysis of the deposited data

How the results depend on the processing

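Each comparison called 1 of the 7 genes, and this count depended on most settings. In MCAGF8 vault against control vault it was 2 with a pseudocount of 0.1 or 0.01, 4 with an unadjusted p under 0.05 alone, and 0 without a minimum, with a minimum of 5 FPKM, with an adjusted p under 0.05, with the paralogs summed, or without control vault replicates 1 and 3 (a setting chosen after seeing the data). In MCAGF8 vault against control base it was 2 with an unadjusted p alone and 0 without a minimum, with quantile normalization, with rescaling to a sum of 1000000, or with an adjusted p under 0.05. In control base against control vault it was 2 with quantile normalization or rescaling, 3 with an unadjusted p alone, and 0 with a pseudocount of 0.01, without a minimum, with a minimum of 5 FPKM, with only the groups compared, with an adjusted p under 0.05, with the paralogs summed, or without control vault replicates 1 and 3. Leaving out 1 library at a time gave 0 to 3, 0 to 3 and 0 to 2 calls. Of 22 alternatives, 4, 10 and 3 left the counts unchanged, but an equal count need not be the same gene: with only the groups compared, Bglap2 was lost against control vault (limma adjusted p = 0.103) and Clec11a was called (0.0336). The 2 genes called with pseudocounts of 0.1 and 0.01 were Bglap2 and Phex. With these, MCAGF8 vault minus control vault moved from -3.45 to -6.60 and -9.90 for Bglap2 and from -0.33 to -0.996 and -1.29 for Sost. The causes were not tested.

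Some directions turned, all of differences that were not called. Without base replicate 3, MCAGF8 vault minus control base was 0.20 for Bglap and 0.17 for Clec11a, and over all single libraries left out it ranged from -0.77 to 0.20 and from -0.70 to 0.17. In control base minus control vault, Sost was -0.15 with quantile normalization, -0.14 without base replicate 3 and -0.0068 without control vault replicate 2, Itm2a was -0.049 without base replicate 1 (ranges -0.14 to 0.27 and -0.049 to 0.63), and without control vault replicates 1 and 3 Bglap was 0.14 and Phex 0.39. The 17 calls of pathway genes kept their direction in every alternative run, but many were lost. Of 22 alternatives, the call was lost in 14 for Mef2c, 10 for Sp7 and 9 for Dmp1 in MCAGF8 vault against control vault, in 12 for Twist1, 10 for Fosl2 and 8 for Fam20c in MCAGF8 vault against control base, and in 13 for Runx2 and 5 for Sostdc1 in control base against control vault. The others were lost in at most 1. Without control vault replicates 1 and 3, 0 of 5 calls remained against control vault, where Ibsp was -5.04 (limma adjusted p = 0.166) and Spp1 -4.04 (0.167), 5 of 8 remained in MCAGF8 vault against control base and 1 of 4 in control base against control vault.

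Rescaling to equal sums moved the median of all genes from -0.009 to 0.132 in MCAGF8 vault against control vault and from -0.066 to 0.112 against control base. Over all genes, 113, 1571 and 573 calls ranged from 11 to 231, 559 to 4580 and 20 to 1322 over the other alternatives than the unadjusted p. Correlations of same-numbered deviations ran from -0.549 to 0.37, and those of differently numbered ones from -0.482 to 0.563. With 3 libraries per group, this cannot tell whether replicate numbers pair the samples. With the replicate block the counts of called genes were 0, 0 and 1 and the calls over all genes 19, 918 and 234, with Sp7 (limma adjusted p = 0.158), Dmp1 (0.209) and Mef2c (0.279) no longer called against control vault.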
